A study of Homo sapiens with 6 samples.

Results

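The neurotransmitter receptors for glutamate, GABA, glycine and acetylcholine were described in 6 RNA-seq libraries of 4 atypical teratoid rhabdoid tumor (AT/RT) cell lines. The genes were chosen by symbol alone: the AMPA (GRIA), kainate (GRIK), delta (GRID), NMDA (GRIN) and metabotropic (GRM) glutamate receptors, the GABA-A (GABR) and GABA-B (GABBR) receptors, the glycine receptors (GLR) and the nicotinic acetylcholine receptors (CHRN). The rule found 68 of the 36532 genes in the transcript files, with 476 of 173113 transcripts. AT/RT is a malignant tumor of the infant brain often marked by loss of the chromatin remodeler SMARCB1. The lines were CHLA 02 (1 library), CHLA 04 (2 technical replicates), CHLA 05 (1 library) and CHLA 06 (2 technical replicates), grown untreated as suspension cultures in serum-free medium with EGF, basic FGF and B-27. Each line was 1 biological sample, so the spread between cultures was not measured, no test between lines was possible, and every difference below is a difference between these libraries. Errors are the SD between technical replicates (n = 2), or, for CHLA 02 and CHLA 05, a 95% Wilson interval. That interval was taken on the gene's total reads and scaled to its TPM. It covers counting error only, and can be too narrow where the reads lie on transcripts of unlike length.

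Ionotropic glutamate receptors are tetramers that admit cations and carry most fast excitation in the brain. GABA-A and glycine receptors are pentamers that pass chloride, and nicotinic receptors are related pentamers that pass cations. The metabotropic glutamate receptors and the GABA-B receptor signal through G proteins. Most of these receptors assemble only from particular combinations of subunits, so the subunits that a cell transcribes set which receptors it could build. Transcript levels say nothing of whether a receptor reached the membrane.

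Levels are in TPM, a unit scaled for transcript length and library depth, summed over the transcripts of a gene, and differences between lines are on the log2(TPM + 2) scale, where 1 is 2-fold for well expressed genes and less for low ones. Depth on transcripts ranged from 10265899 to 20520229 reads per library, so a single read per kilobase of transcript stood for 0.117 to 0.236 TPM. In bulk RNA, fewer cells with a transcript and less of it per cell cannot be told apart. A gene was called detected at 1 TPM or more in a line, where a line's value is the mean of its technical replicates. The study describes all of these lines as without SMARCB1 expression. SMARCB1 RNA was at 13.5 to 26.2 TPM in every library, which goes against that description if it means RNA. The values do not show which part of the gene was read, and they say nothing of protein. Neither the endothelial markers nor the pan-leukocyte marker PTPRC exceeded 0.224 TPM in any library, CD3E was at 0, and CD68 reached 22.6 TPM in CHLA 06. Of 5 astrocyte markers, GFAP, AQP4 and SLC1A3 were at 23.9 TPM or more in the libraries of CHLA 02, CHLA 04 and CHLA 05 and at 1.61 TPM or less in those of CHLA 06. S100B was at 15.2 TPM in CHLA 05, 0 in CHLA 02 and CHLA 04, and at most 0.147 TPM in CHLA 06, and ALDH1L1 did not exceed 0.319 TPM in any library.

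One library stood apart before any receptor was considered. Of the 208 genes at 20 TPM or more in CHLA 04 and under 0.5 TPM in CHLA 06, all 208 were detected in the library labelled CHLA 02, at a median of 0.362 times their CHLA 04 level. Of the 175 genes at 20 TPM or more in CHLA 06 and under 0.5 TPM in CHLA 04, all 175 were also detected there, at a median of 0.553 times their CHLA 06 level. None of the 8143 genes at 20 TPM or more in that library was under 0.5 TPM in both CHLA 04 and CHLA 06, whereas 25 such genes existed for CHLA 05. The count was also 0 for CHLA 04 against CHLA 02 and CHLA 06, and for CHLA 06 against CHLA 02 and CHLA 04. A weighted sum of the other 3 lines, fitted over 15998 genes that are not receptors, gave weights of 0.344 for CHLA 04, 0.601 for CHLA 06 and 0 for CHLA 05. The median gene of the library differed from that sum by 0.197 on the log2 scale, compared with 0.288 between the technical replicates of CHLA 04 and 0.157 between those of CHLA 06. The same sum fitted to CHLA 04, CHLA 05 or CHLA 06 left median differences of 0.426, 0.378 and 0.298. Whether the library labelled CHLA 02 holds RNA of more than 1 line was not tested, and the counts over all receptors are given with and without it.

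Among the receptors, 35 of the 37 genes detected in any line lay within 1 of the weighted sum in the library labelled CHLA 02, with a median difference of 0.203. A gene under 2 TPM in both could not differ by 1 on this scale. Low receptors therefore met the criterion whatever their values, and the count says nothing about them. The sum predicted 58.4 TPM for the AMPA receptor gene GRIA4, where 61.8 TPM was measured. For the metabotropic gene GRM3 it predicted 31.2 TPM, where 34.3 TPM was measured. The match was looser for the kainate gene GRIK2, with 85.3 TPM predicted and 132 TPM measured. It was also looser for CHRNA1 (2.70 predicted, 7.15 measured) and GLRB (2.24 predicted, 0.662 measured). The exceptions, more than 1 from the sum, were GRIN2A, at 13.4 TPM where the sum gave 2.59, and GRIA2, at 137 TPM where it gave 59.7. All 22 receptors detected in that library were also detected in CHLA 04 or CHLA 06. Of all genes, 43.9% were detected in at least 1 line with that library and 43.5% without it. Few genes of any kind were thus detected in that library alone.

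**Figure D1:**
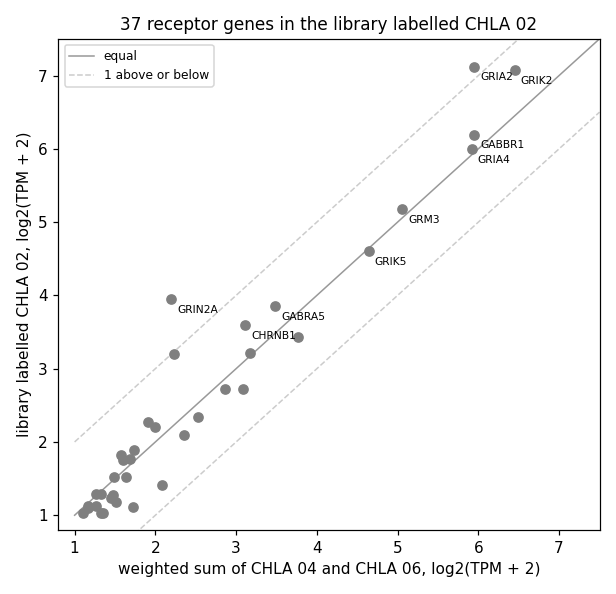
Level of 37 receptor genes in the library labelled CHLA 02 (vertical axis) against the weighted sum of CHLA 04 and CHLA 06 (horizontal axis), both on log2(TPM + 2), with 1 point per gene, a solid line of equality and dashed lines at 1 above and below it. Between the dashed lines lie 35 of the points, and GRIN2A and GRIA2 lie more than 1 above the line of equality.

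Of the 68 receptors, 37 were detected in at least 1 line, where 43.9% of all genes met that criterion. CHLA 04 had 29 detected receptors (38.7% of all genes), CHLA 05 had 29 (39.2%), the library labelled CHLA 02 had 22 (39.7%) and CHLA 06 had 11 (37.3%). The share of all genes detected thus differed little between lines, while the receptors of CHLA 06 were fewer than those of the other lines. Detected in every line were 7 receptors, namely CHRNA5, CHRNA7, CHRNB1, GABBR1, GRIK5, GRIN2C and GRIN2D. With the library labelled CHLA 02 left out, 37 were still detected in a line (43.5% of all genes) and 8 in every line, GLRB being the addition. Another 7 receptors were listed at 0 in all libraries: CHRNA2, CHRNA6, CHRNG, GABRA6, GABRG1, GABRR1 and GLRA2. The remaining 24 had reads but stayed under 1 TPM in every line, with a highest library value of 1.08 TPM for GABRR3.

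Between lines, 27 of the 37 detected receptors differed by 1 or more from lowest to highest line, compared with 43.0% of all detected genes. The median range of the 37 was 1.47, against 0.88 over all detected genes. Without the library labelled CHLA 02, 26 of the 37 varied, beside 41.3% of all detected genes, and the median range was 1.40, against 0.84. The technical replicates of CHLA 04 differed by 1 or more for 1 of the 37 receptors (4.06% of all detected genes) and those of CHLA 06 for 0 of them (0.954%). CHLA 04 was the highest line for 20 of the 37 receptors (35.5% of all detected genes), CHLA 05 for 14 (30.0%), the library labelled CHLA 02 for 3 (11.2%) and CHLA 06 for 0 (23.3%). Without the library labelled CHLA 02, the counts were 21 for CHLA 04 (39.0%), 14 for CHLA 05 (32.0%) and 2 for CHLA 06 (29.0%).

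Receptors that stood at least 1 above the next highest line numbered 4 in CHLA 04 (among them GRIA4, GRIK5 and GRM3), beside 2.54% of all detected genes. CHLA 05 had 7 of them (among them CHRNA3, CHRNA9, GABBR2, GABRD, GLRB and GRIK3), beside 5.04%. There were 0 in the library labelled CHLA 02 (0.131%) and 0 in CHLA 06 (1.59%). In the opposite direction, 7 receptors were at least 1 below the next lowest line in CHLA 06 (among them GABRA2, GABRA5, GRIA2, GRIA4, GRIK2 and GRIK5), beside 4.91% of all detected genes.

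Leaving out the library labelled CHLA 02 raised the count for CHLA 04 to 12 (5.35% of all detected genes), adding CHRNA1, GABRA5, GABRE, GRIA2, GRID1, GRIK2, GRIN2A and GRIN2B. It left the 7 of CHLA 05 as they were (5.43%) and the 0 of CHLA 06 as well (7.75%). The receptors lowered in CHLA 06 became 9 (9.58%), with GABRD among those added. The share of all detected genes raised in CHLA 06 therefore rose from 1.59% to 7.75% while no receptor joined it.

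**Figure D2:**
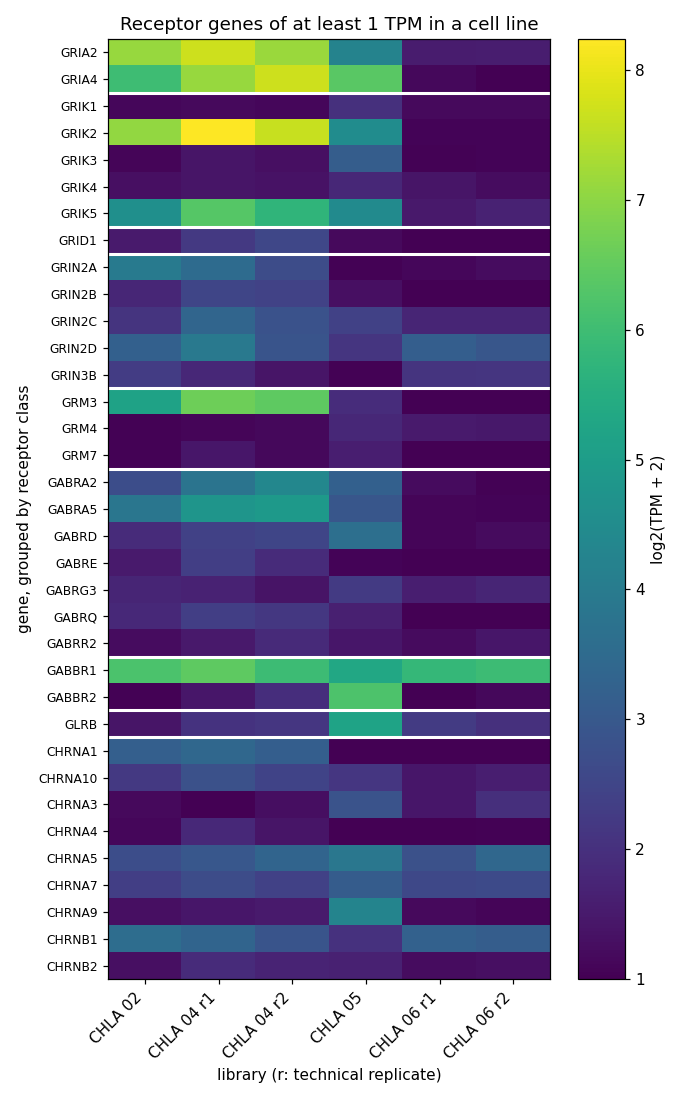
Level of 35 of the receptor genes detected in at least 1 line (rows, grouped by receptor class with white lines between classes) in the 6 libraries (columns), as log2(TPM + 2) on a color scale from 1 (0 TPM) upward. The GRIA2, GRIA4, GRIK2, GRIK5 and GRM3 rows are bright in CHLA 02 and CHLA 04 and dark in CHLA 06, and the GABBR2, GLRB and CHRNA9 rows are bright in CHLA 05.

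To show promoters of receptors that differed in opposite ways between lines, the 250 bases before the RefSeq start (GRCh38.p14) are given for GRIA2 and GRIK2, which were lowest in CHLA 06, and for GABBR2 and GLRB, which were highest in CHLA 05. Capitals mark the GC box GGGCGG on either strand and, in GLRB, the letters GGACAG on the opposite strand, which form the right part of the RE1 element of neuronal genes. The windows lie at chr4:157219870-157220119 (plus strand), chr6:101393458-101393707 (plus strand), chr9:98708936-98709185 (minus strand) and chr4:157075900-157076149 (plus strand).
GRIA2: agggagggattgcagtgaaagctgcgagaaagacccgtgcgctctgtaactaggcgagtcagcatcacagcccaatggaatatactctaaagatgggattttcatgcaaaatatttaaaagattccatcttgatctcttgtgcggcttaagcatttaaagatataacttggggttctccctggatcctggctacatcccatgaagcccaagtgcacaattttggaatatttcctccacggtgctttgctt
GRIK2: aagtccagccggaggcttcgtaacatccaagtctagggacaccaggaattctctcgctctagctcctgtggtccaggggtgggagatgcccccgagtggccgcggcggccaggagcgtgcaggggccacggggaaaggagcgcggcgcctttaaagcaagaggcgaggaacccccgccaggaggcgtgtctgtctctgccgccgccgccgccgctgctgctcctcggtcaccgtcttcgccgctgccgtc
GABBR2: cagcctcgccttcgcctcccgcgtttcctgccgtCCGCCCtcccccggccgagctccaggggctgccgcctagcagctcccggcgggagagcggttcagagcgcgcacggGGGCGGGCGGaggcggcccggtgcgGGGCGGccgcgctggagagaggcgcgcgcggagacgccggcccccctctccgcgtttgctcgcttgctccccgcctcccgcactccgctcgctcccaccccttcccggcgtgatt
GLRB: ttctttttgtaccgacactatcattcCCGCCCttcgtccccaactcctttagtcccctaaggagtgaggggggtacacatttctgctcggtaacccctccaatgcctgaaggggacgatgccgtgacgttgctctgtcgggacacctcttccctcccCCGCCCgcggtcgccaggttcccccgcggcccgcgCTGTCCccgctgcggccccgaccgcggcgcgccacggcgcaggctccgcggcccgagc
The GRIA2 window had 44.4% G and C and 6 CpG dinucleotides, whereas GRIK2 had 68% and 25, GABBR2 78% and 38, and GLRB 67.6% and 28. RefSeq windows matched 48 of the 68 receptors. The GC box was present in 26 of these 48 (54.2%) and in 42.3% of all 27305 windows, and GGACAG was present in 16 (33.3%) and in 17.1% of all windows. The left part of the RE1 element, TCAGCACC, was present in 1 of the 48 (2.08%) and in 1.34% of all windows. Median G and C content was 63.6% in the receptor windows and 58% in all windows. Of the receptors raised in CHLA 05, 5 had a window and 4 of these held a GC box. Of those lowered in CHLA 06, 5 had a window and 2 held one. These letters are matches in a window and not measured sites.

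AMPA receptors carry the fast component of excitatory transmission. Only GRIA2 and GRIA4 of the 4 AMPA genes were detected. GRIA2 (ENSG00000120251, chromosome 4 from 157204182 to 157366075, plus strand) encodes the subunit that makes the channel impermeable to calcium once its transcript is edited. It was at 137 TPM in the library labelled CHLA 02 (95% interval 133 to 142), 204 and 140.2 TPM in the replicates of CHLA 04, 17.0 TPM in CHLA 05 (15.3 to 18.8), and 0.954 and 0.963 TPM in those of CHLA 06. The means of 172 ± 44.8 TPM (SD, n = 2) in CHLA 04 and 0.959 ± 0.0062 TPM (SD, n = 2) in CHLA 06 were separated by far more than the spread between technical replicates. CHLA 06 had 18 and 24 reads on the gene.

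GRIA4 (ENSG00000152578, chromosome 11 from 105609994 to 105982092, plus strand), a subunit of fast-gating AMPA receptors, was at 61.8 TPM in the library labelled CHLA 02, 136 and 203 TPM in CHLA 04, 81.5 TPM in CHLA 05 (77.2 to 86.0) and 0.214 and 0.0231 TPM in CHLA 06. The CHLA 06 libraries held 2 and 1 reads of it. GRIA2 and GRIA4 were thus both low in CHLA 06, but their order differed between the other lines. GRIA2 made up 68.9% of the summed AMPA TPM in the library labelled CHLA 02, 50.3% in CHLA 04 and 16.9% in CHLA 05, where GRIA4 made up 81.2%. These shares count all transcript types. Protein-coding forms made up 25.3%, 23.8% and 45.9% of the GRIA2 TPM in CHLA 02, CHLA 04 and CHLA 05. For GRIA4 they made up 65.0%, 62.4% and 55.6%, so the GRIA2 shares would be lower over protein-coding forms. GRIA1 and GRIA3, the partners of GRIA2 in the adult forebrain, stayed at or under 0.884 and 0.994 TPM.

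Kainate receptors act on both sides of the synapse and need a GRIK1 to GRIK3 subunit to form a channel by themselves. GRIK2 (ENSG00000164418, chromosome 6 from 101398788 to 102070083, plus strand) had the highest level of any of the 68 receptors, with 300.1 and 196 TPM in the replicates of CHLA 04. It was at 132 TPM in the library labelled CHLA 02 (127 to 138), 20.7 TPM in CHLA 05 (18.6 to 23.1) and 0.0898 and 0.0991 TPM in CHLA 06, which held 3 and 4 reads. The range from CHLA 04 to CHLA 06 was 6.90, and CHLA 06 was 3.44 below CHLA 05.

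GRIK5 (ENSG00000105737), an accessory subunit that forms channels only together with GRIK1 to GRIK3, followed the same order in CHLA 04 and CHLA 06. It was at 22.3 TPM in the library labelled CHLA 02, 78.2 and 51.8 TPM in CHLA 04, 20.1 TPM in CHLA 05 and 0.828 and 1.25 TPM in CHLA 06. The values of CHLA 02 (20.4 to 24.4) and CHLA 05 (18.3 to 22.2) had overlapping intervals. CHLA 06 thus had low levels of the accessory subunit, on 20 and 33 reads, while GRIK1, GRIK2 and GRIK3 were each under 0.3 TPM.

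CHLA 05 was the only line with all 5 kainate genes detected. GRIK3 was at 6.87 TPM there (6.19 to 7.62) and between 0.0437 and 0.676 TPM in the other 5 libraries. GRIK1 was at 2.02 TPM in CHLA 05 and at most 0.291 TPM elsewhere, and it shares 45 bp of exon with BACH1 on the opposite strand. GRIK4 reached 1.47 TPM in CHLA 05, with 56.4% of it in a retained-intron form and 43.6% in protein-coding forms. The count of 5 therefore holds only over all transcript types. In summed TPM, kainate genes were at 155 in the library labelled CHLA 02, 314 ± 92.7 (SD, n = 2) for CHLA 04, 51.2 for CHLA 05 and 2.00 ± 0.151 (SD, n = 2) for CHLA 06.

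**Figure D3:**
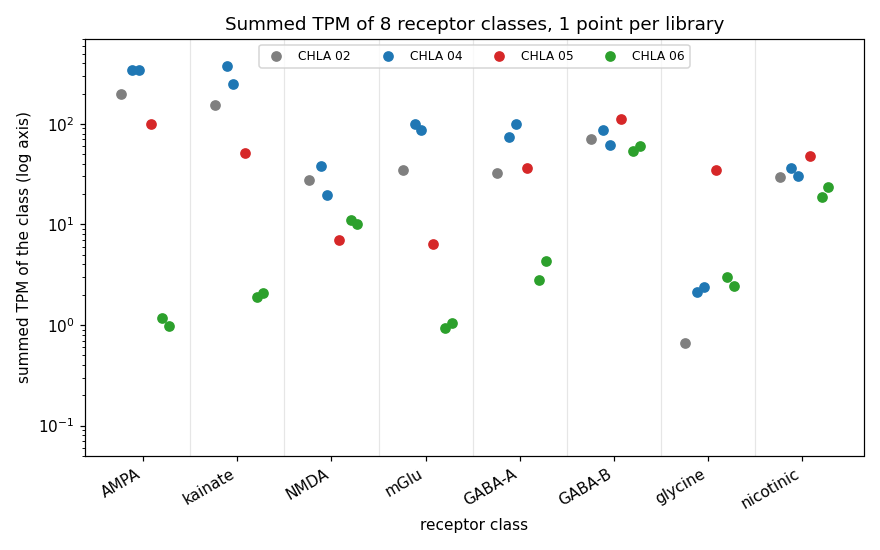
Summed TPM of the genes of 8 receptor classes (horizontal axis) in each library (points, colored by cell line), on a log axis. CHLA 06 lies lowest for the AMPA, kainate, mGlu (metabotropic glutamate), GABA-A and nicotinic classes, while the GABA-B points of all lines lie between 54.1 and 111 TPM and the glycine point of CHLA 05 stands at 35.0 TPM.

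GRID1, a delta receptor that binds synaptic organizers of the cerebellin family, was at 2.60 and 3.77 TPM in CHLA 04, 0.870 TPM in CHLA 02, 0.276 TPM in CHLA 05, and 0.0221 and 0 TPM in CHLA 06. It was thus highest in CHLA 04 and at or near 0 in CHLA 06.

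NMDA receptors detect coincident glutamate release and depolarization, and each contains GRIN1. GRIN1 was not detected in any line: it was at 0.0746 TPM in the library labelled CHLA 02, 0.581 and 0.0352 TPM in CHLA 04, 0.587 TPM in CHLA 05, and 0.407 and 0.395 TPM in CHLA 06, on 1 to 10 reads per library. Its partner subunits were detected. GRIN2D, the GluN2 subunit typical of early development, was at 7.28 TPM in CHLA 02, 13.3 and 5.43 TPM in CHLA 04, 2.32 TPM in CHLA 05, and 6.90 and 5.61 TPM in CHLA 06. The 2 replicates of CHLA 04 lay on both sides of the CHLA 06 values, so these lines did not differ beyond their spread.

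GRIN2A was highest in the library labelled CHLA 02 at 13.4 TPM (12.4 to 14.5), followed by 9.58 and 4.48 TPM in CHLA 04. It was at 0.0702 TPM in CHLA 05 and 0.182 and 0.376 TPM in CHLA 06. Among the 37 detected receptors, GRIN2A was one of the 3 whose highest value was in that library, with CHRNB1 and GRIN3B. GRIN2B, the other major forebrain subunit, reached 3.74 and 3.35 TPM in CHLA 04, 1.41 TPM in CHLA 02 and 0.472 TPM in CHLA 05, with 1 and 3 reads in CHLA 06.

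GRIN2C, which is typical of the cerebellum, was detected in every line, at 2.29 TPM in CHLA 02, 8.27 and 5.10 TPM in CHLA 04, 3.26 TPM in CHLA 05, and 1.34 and 1.36 TPM in CHLA 06. Transcripts typed as retained introns made up 45.9% to 61.7% of its TPM. GRIN3B, a subunit that lowers calcium flow, was at 2.83 TPM in CHLA 02, 1.47 and 0.672 TPM in CHLA 04, 0.0467 TPM in CHLA 05, and 2.28 and 2.35 TPM in CHLA 06. It shares 85 bp of exon with TMEM259 on the opposite strand, a gene of up to 212 TPM.

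Among the 8 metabotropic glutamate receptors, GRM3 was the only one above 2 TPM in a line. GRM3 (ENSG00000198822, chromosome 7 from 86643914 to 86864884, plus strand) couples to inhibitory G proteins and is made by astrocytes as well as neurons. It was at 97.0 and 84.6 TPM in CHLA 04, 34.3 TPM in the library labelled CHLA 02 (32.2 to 36.5), 1.75 TPM in CHLA 05 (1.31 to 2.33), and 0 and 0.0274 TPM in CHLA 06 (0 and 1 reads). Its transcripts were nearly all 1 protein-coding form of 4268 bp, with 96.7% of the gene's TPM in CHLA 02 and 97.3% in CHLA 04. Unlike GFAP and AQP4, which CHLA 05 also had at 151 and 43.2 TPM, GRM3 was low there. GRM4 and GRM7 were just past detection in CHLA 05, at 1.505 and 1.04 TPM.

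GABA-A receptors mediate fast inhibition in the mature brain and usually combine alpha, beta and gamma or delta subunits. Of their 19 genes, 8 were detected. GABRA5, an alpha subunit of extrasynaptic receptors encoded on chromosome 15, was at 25.2 and 27.7 TPM in CHLA 04, 12.4 TPM in CHLA 02, 5.73 TPM in CHLA 05, and 0.146 and 0.121 TPM in CHLA 06. GABRG3, on the same chromosome, had another order of lines, at 1.36 TPM in CHLA 02, 1.24 and 0.631 TPM in CHLA 04, 2.73 TPM in CHLA 05, and 1.02 and 1.37 TPM in CHLA 06.

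GABRA2, on chromosome 4, was at 11.9 and 18.2 TPM in CHLA 04, 7.27 TPM in CHLA 05, 4.605 TPM in CHLA 02, and 0.298 and 0.0747 TPM in CHLA 06. Its neighbors GABRG1, GABRA4 and GABRB1 were not detected. GABRD, the delta subunit of receptors that sense ambient GABA, was highest in CHLA 05 at 10.5 TPM (8.85 to 12.4). It was at 3.31 and 3.68 TPM in CHLA 04, 1.71 TPM in CHLA 02, and 0.134 and 0.304 TPM in CHLA 06. GABRD made up 28.9% of the summed GABA-A TPM in CHLA 05 and 4.04% in CHLA 04.

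GABRQ was at 3.10 and 2.49 TPM in CHLA 04, 1.55 TPM in CHLA 02, 1.09 TPM in CHLA 05, and 0 and 0.0190 TPM in CHLA 06. GABRE was at 3.04 and 1.68 TPM in CHLA 04, 0.884 TPM in CHLA 02, 0.0806 TPM in CHLA 05 and 0 in both libraries of CHLA 06. Of the GABRE TPM in CHLA 04, 74.7% lay in retained-intron forms and 1.95% in protein-coding forms. GABRB2, a main beta subunit of the adult brain, had at most 7 reads. A count of 0 allows up to 3 reads, which per kilobase is 3 times the 0.117 to 0.236 TPM given above.

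The GABA-B receptor is an obligatory pair of GABBR1, which binds GABA, and GABBR2, which reaches the membrane and couples to the G protein. GABBR1 (ENSG00000204681, chromosome 6 from 29555629 to 29633976, minus strand) had a range over lines of 0.88, under the criterion for varying. The range was 1.25 over protein-coding transcripts and 1.11 with the maximum of technical replicates, both past that criterion. It was at 71.1 TPM in the library labelled CHLA 02 (67.1 to 75.5), 85.7 and 60.4 TPM in CHLA 04, 38.7 TPM in CHLA 05 (35.4 to 42.2), and 54.1 and 60.5 TPM in CHLA 06. The replicates of CHLA 04 enclosed the higher CHLA 06 value, and only CHLA 05 lay outside the values of the other lines. In CHLA 06, GABBR1 alone made up 57.3 of the 99.5 TPM summed over all 68 receptors.

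GABBR2 (ENSG00000136928, chromosome 9 from 98288109 to 98709197, minus strand) showed the opposite pattern. It was at 72.0 TPM in CHLA 05 (69.4 to 74.8, 2708 reads), against 0.0519 TPM in CHLA 02, 0.698 and 1.84 TPM in CHLA 04, and 0 and 0.228 TPM in CHLA 06. CHLA 05 stood 4.50 above the next line, the widest such gap among the 68 receptors. The line with the least GABBR1 was therefore the line with the most GABBR2, whose TPM lay in 1 protein-coding form of 5761 bp. GABBR2 was also detected in CHLA 04, at a mean of 1.27 TPM. The pairing auxiliary subunit KCTD12 was at 20.0 TPM in CHLA 05 and at 0.997 to 4.24 TPM elsewhere.

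Of the 5 glycine receptor genes, only the beta subunit GLRB was detected. GLRB (ENSG00000109738, chromosome 4 from 157076057 to 157172090, plus strand), which anchors the receptor to gephyrin, was at 34.6 TPM in CHLA 05 (31.5 to 37.9). It was at 0.662 TPM in CHLA 02, 2.14 and 2.39 TPM in CHLA 04, and 2.83 and 2.02 TPM in CHLA 06, where the values of these 2 lines overlapped. Of the alpha subunit genes, GLRA1, GLRA3 and GLRA4 stayed at or under 0.384 TPM, and GLRA2 had 0 reads. GPHN, the gene of gephyrin, was lowest in CHLA 05 at 20.0 TPM and reached 201 and 143 TPM in CHLA 04.

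The nicotinic genes were the class with the smallest ratio of highest to lowest line after GABA-B, and summed to 29.5 TPM for CHLA 02, 33.4 ± 3.97 TPM (SD, n = 2) for CHLA 04, 47.6 TPM for CHLA 05 and 21.1 ± 3.54 TPM (SD, n = 2) for CHLA 06. Their composition differed more. CHRNA9 (ENSG00000174343, chromosome 4 from 40335329 to 40355217), a subunit of the receptor of cochlear hair cells, was at 17.3 TPM in CHLA 05 (15.0 to 19.8) and between 0.154 and 0.885 TPM in the other 5 libraries. Its usual partner CHRNA10 was at 2.43 TPM in CHLA 05, 2.59 TPM in CHLA 02, 4.95 and 3.54 TPM in CHLA 04, and 0.718 and 1.03 TPM in CHLA 06, and it shares 133 bp of exon on the same strand with NUP98, a gene of up to 206 TPM.

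The muscle-type alpha subunit CHRNA1 divided the lines in another way. It was at 7.15 TPM in the library labelled CHLA 02, 8.69 and 7.02 TPM in CHLA 04 and 0 in the libraries of CHLA 05 and CHLA 06, where 3 reads would have been 0.232, 0.195 and 0.177 TPM. Its muscle partner CHRNB1 was detected in every line, at 10.1 TPM in CHLA 02, 8.16 and 5.31 TPM in CHLA 04, 2.06 TPM in CHLA 05, and 7.57 and 6.81 TPM in CHLA 06. The other muscle subunits CHRND, CHRNE and CHRNG had at most 2 reads in any library, and the skeletal muscle markers MYOD1, MYOG, DES and CKM were at most 0.212 TPM. Of the 6 muscle markers only MYH3 was detected, at 0.957 to 3.94 TPM.

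The neuronal cluster on chromosome 15 gave CHRNA5 in all lines and CHRNA3 mainly in CHLA 05. CHRNA5 was at 4.61 TPM in CHLA 02, 5.86 and 8.06 TPM in CHLA 04, 12.7 TPM in CHLA 05 (11.3 to 14.3), and 4.91 and 8.76 TPM in CHLA 06, so that CHLA 04 and CHLA 06 overlapped. CHRNA3, which forms the ganglionic receptor, was at 5.25 TPM in CHLA 05 (4.34 to 6.34), 0.260 TPM in CHLA 02, 0 and 0.420 TPM in CHLA 04, and 0.685 and 1.90 TPM in CHLA 06. Both genes share 198 bp of exon on opposite strands. CHRNB4, its ganglionic partner, was at 0.574 TPM in CHLA 02 and at most 0.131 TPM elsewhere.

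CHRNA7, which forms channels without other subunits, was at 3.05 TPM in CHLA 02, 4.37 and 3.31 TPM in CHLA 04, 6.55 TPM in CHLA 05 (5.75 to 7.45), and 3.91 and 4.16 TPM in CHLA 06. Part of this gene has a near-identical copy in the fusion gene CHRFAM7A, so its reads are uncertain. CHRNB2, the main beta subunit of brain receptors, was at 0.433 TPM in CHLA 02, 1.73 and 1.31 TPM in CHLA 04, 1.15 TPM in CHLA 05, and 0.374 and 0.479 TPM in CHLA 06. Its brain partner CHRNA4 was detected only in CHLA 04, at 1.59 and 0.643 TPM.

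Over all 68 receptors, the summed TPM was 552 in the library labelled CHLA 02, 982 ± 115 (SD, n = 2) for CHLA 04, 406 for CHLA 05 and 99.5 ± 8.27 (SD, n = 2) for CHLA 06. AMPA and kainate genes made up 34.8% and 32.0% of the sum in CHLA 04, 24.7% and 12.6% in CHLA 05, and 1.08% and 2.01% in CHLA 06. In CHLA 06 the GABA-B genes made up 57.7% and the nicotinic genes 21.2%.

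A second readout of the same libraries came from the LTR files, in which reads were mapped to long terminal repeat elements separately and scaled to their own total. Within the spans of the 68 receptors lay 2592 LTR elements, 776 of them on the strand of the gene. The same read pairs were mapped for both readouts, so a read on an element that overlaps a transcript can count in both, and the 2 readouts are not independent. Of the reads on them, 79.4% to 94.99% were on the gene's strand in CHLA 02, CHLA 04 and CHLA 05, and 44.1% and 44.5% in CHLA 06. The reads inside receptors numbered 1138 for CHLA 02, 1418 and 1671 for CHLA 04, 1021 for CHLA 05, and 173 and 256 for CHLA 06, out of 355302 to 511408 LTR reads per library.

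GRIK2 contained 37 LTR elements on its strand, with 449 reads in the library labelled CHLA 02, 712 and 578 reads in CHLA 04, 42 reads in CHLA 05, and 0 and 2 reads in CHLA 06. The element with the most reads, an MSTA-int on chromosome 6 from 101942327 to 101943932, had 92, 196, 143, 3, 0 and 0 reads in the same order of libraries. GRM3 held 120 same-strand reads in CHLA 02, 222 and 241 reads in CHLA 04, 6 reads in CHLA 05 and 0 in both CHLA 06 libraries. GRIA4 held 114 reads in CHLA 02, 126 and 263 reads in CHLA 04, 139 reads in CHLA 05 and 0 in both CHLA 06 libraries, so that it kept its high level in CHLA 05 in this readout as well. In GRIA2, most reads fell on a MER11B on chromosome 4 from 157257812 to 157258871, with 42, 47, 42, 5, 1 and 1 reads.

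GABBR2, raised in CHLA 05, had its LTR reads mainly in that line. It held 147 same-strand reads in CHLA 05 and at most 4 in any other library. GRIN2A held 137 reads in CHLA 02, 45 and 36 reads in CHLA 04, 0 reads in CHLA 05, and 2 and 1 reads in CHLA 06, the same order of lines as its TPM. For GRIK1 and GLRA2, by contrast, most LTR reads were on the strand opposite to the gene, with 36 reads in CHLA 05 inside GLRA2, which had 0 reads on its transcripts.

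**Figure D4:**
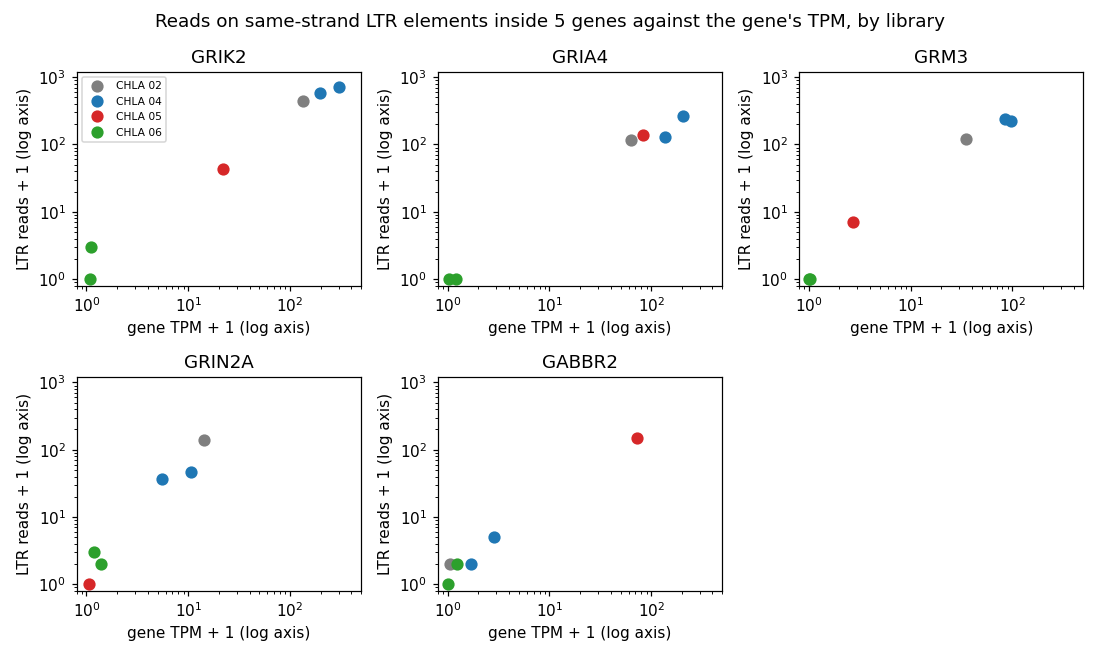
Reads on LTR elements that lie inside a gene on its strand, plus 1 (vertical log axis), against the TPM of the gene, plus 1 (horizontal log axis), for 5 receptor genes, with 1 point per library colored by cell line. GRIK2, GRIA4, GRM3 and GRIN2A have both values high in CHLA 02 and CHLA 04 and low in CHLA 06, while GABBR2 has its highest point in CHLA 05.

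Transcript types set a limit on what the gene sums stand for. Transcripts typed as retained introns in GENCODE v44 made up 55.0% of the GRIA2 TPM in CHLA 04 and 47.7% in CHLA 05, with 23.8% and 45.9% in protein-coding forms. In GABBR1, protein-coding forms made up 19.3% to 29.0% in the 4 lines. GRIK5 was 85.8% protein-coding in CHLA 02, 86.0% in CHLA 04 and 90.2% in CHLA 05. For the receptors detected only in CHLA 04, protein-coding forms made up 1.95% (GABRE), 9.19% (GABRR2), 9.91% (CHRNA4) and 23.7% (GRID1). GRIK4 and GRM4, detected only in CHLA 05, were 43.6% and 35.1% protein-coding there. The detection of all of these thus rested mainly on other transcript types. Reads shared by several transcripts of a gene were divided by the default of the mapping tool, which the sources used here do not spell out, so these shares are uncertain.

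The auxiliary subunits of AMPA and kainate receptors, which traffic and gate these channels, were listed with other partners of the receptors. Of 19 genes, 15 were detected (43.9% of all genes) and 13 varied between lines by the criterion above (43.0% of all detected genes). Of these, 4 were raised in CHLA 05 (5.04%) and 5 lowered in CHLA 06 (4.91%), or 7 lowered without the library labelled CHLA 02 (9.58%). The same shares, of all genes for detection and of all detected genes for the rest, apply to the counts of the lists that follow. The cytoplasmic partners GRIP1 and PICK1, which bind AMPA receptor tails, were instead highest in CHLA 06, at 27.6 and 26.7 TPM. CACNG4, a TARP subunit, was at 12.9 TPM in the library labelled CHLA 02, 67.5 and 83.0 TPM in CHLA 04, 138 TPM in CHLA 05, and 0.191 and 0.277 TPM in CHLA 06. CNIH2, a cornichon that slows AMPA channels, was at 28.6 TPM in CHLA 02, 90.6 and 82.4 TPM in CHLA 04, 30.4 TPM in CHLA 05, and 8.23 and 9.43 TPM in CHLA 06. NETO2, a kainate partner, reached 46.6 TPM in CHLA 04 and was at 2.17 and 7.28 TPM in CHLA 06.

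Of 20 postsynaptic scaffold genes, all 20 were detected in at least 1 line, 15 varied and 1 (DLGAP1) was lowered in CHLA 06, or 2 without the library labelled CHLA 02. DLG1 was at 49.1 to 122.7 TPM and DLGAP4 at 58.2 to 159.7 TPM over the libraries. In CHLA 06, where most glutamate receptors were not detected, 16 of the 20 scaffold genes were. The exceptions were SHANK1, DLGAP1, DLGAP2 and DLGAP3. Of 11 glutamate enzymes and transporters, 8 were detected and 7 varied. SLC1A3, the glial glutamate transporter, was at 286 TPM in CHLA 02, 421 and 453 TPM in CHLA 04, 1047 TPM in CHLA 05, and 0.300 and 1.61 TPM in CHLA 06, whereas GLUL, glutamine synthetase, was at 55.5 TPM or more in every library.

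Of 12 genes that make and move GABA, glycine and chloride, 9 were detected and 6 varied. GAD1, which makes GABA from glutamate, was at 410.0 and 282 TPM in CHLA 06, 209 TPM in the library labelled CHLA 02, 64.2 TPM in CHLA 05 and 8.43 and 10.2 TPM in CHLA 04. CHLA 06, the line with the lowest GABA-A sum, was thus the line with the highest GAD1. ABAT, which breaks GABA down, was highest in CHLA 05 at 95.4 TPM, and the chloride importer SLC12A2 was at 22.8 to 34.9 TPM in all libraries. All 3 KCTD subunits of the GABA-B receptor were detected and 2 varied (1 without the library labelled CHLA 02), and beside KCTD12 their highest values were 3.04 TPM for KCTD16 in CHLA 06 and 3.02 TPM for KCTD8 in CHLA 04.

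Of the 13 cholinergic genes and nicotinic partners found, 10 were detected and 8 varied. Without the library labelled CHLA 02, the numbers detected and varying stayed as given for the auxiliary, scaffold, enzyme and cholinergic genes. MUSK, the receptor kinase of the neuromuscular junction, was raised in CHLA 06 at 90.2 and 95.3 TPM, with 39.6 TPM in CHLA 02, 1.20 and 2.08 TPM in CHLA 04 and 0.307 TPM in CHLA 05. AGRN, the agrin gene, was at 59.4 to 178 TPM in all libraries. TMEM35, a nicotinic receptor chaperone, was at 42.4 TPM in CHLA 05 and at most 3.02 TPM elsewhere.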

How the data were processed

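Total RNA of 4 AT/RT cell lines was prepared with a stranded total RNA kit and sequenced as read pairs, in 6 libraries. Per the labels and the study's methods, the authors demultiplexed reads with CASAVA 1.8.2, trimmed them with Trimmomatic, checked them with FastQC and mapped them to GRCh38 with the CLCbio Genomics Workbench, once to Ensembl transcripts and once to RepeatMasker LTR elements. The workbench ran its RNA-Seq tool with default settings on the same read pairs both times. Its version, and what those defaults were for strand and for shared reads, are not given in the sources used here. The deposited values are TPM, scaled separately for transcripts and for LTR elements.

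Transcript TPM was summed by gene with Python 3.11.15 and pandas 2.3.3. Technical replicates were averaged per line, then log2(TPM + 2) was taken, with the study's pseudocount of 2. Reads were recovered from TPM times length, which gave whole numbers (within 0.05) for 99.6% to 100% of values, and the recovery was checked on simulated libraries. The limit of a count of 0 is 3 reads on the longest transcript. A gene was detected at 1 TPM in a line; detected genes were called varying, raised or lowered at a difference of 1. No test was made, since each line was 1 biological sample. The weighted sum was fitted by least squares on log2(TPM + 2) with scipy 1.17.1.

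The genes named are the 30 receptors of highest level, the subunits their class requires and the highest 3 of each other list; further names were chosen after their values were seen. A few genes that these rules cover are counted in the totals and are not reported here. The receptors and lists were chosen with earlier results of these data known. Alternatives were other normalizations, thresholds, pseudocounts and transcript choices, and leaving out single libraries.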

Additional observations from a re-analysis of the deposited data

How the results depend on the processing

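No relation between lines has a replicate check beyond technical replicates, and precision is limited by depth for genes of few reads, which include most receptors in CHLA 06. Of 114 recomputed counts of receptors, 100 stayed within 1.5 times the reported count. The detected receptors of CHLA 06, reported as 11, were 7 by the most abundant transcript of each gene, 17 at 0.5 TPM, 7 at 2 TPM and 4 at 5 TPM. At 5 TPM, detected receptors numbered 12 for CHLA 02, 15 for CHLA 04, 17 for CHLA 05 and 23 for any line. Receptors raised in 1 line, reported as 11, were 18 with a pseudocount of 0.5, 3 at a difference of 2, and 19 with the library labelled CHLA 02 left out, an alternative chosen after seeing the data. Varying receptors, reported as 27, were 16 at a difference of 2. Receptors lowered in CHLA 06, a count also added after seeing the data and reported as 7, were 11 with a pseudocount of 0.5 and 4 by the most abundant transcript. Without 1 technical replicate at a time, receptors raised in 1 line numbered 10 to 15 and those detected in CHLA 06 numbered 9 to 13. The cause of these changes was not tested. The range over lines moved by more than 1 SD in 94 of 360 recomputed values of 30 receptors. No paired analysis was possible because no test was made.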
